A study of Mus musculus with 10 samples.

Results

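The enzymes that attach glucuronic acid or sulfate to drugs, bilirubin, bile acids and steroids were followed in mouse liver during diet and toxin injury and in the tumours that developed there. Genes were taken by symbol: every row beginning Ugt1, Ugt2 or Ugt3, or Sult1 to Sult6, which gave 38 genes of 24062 in the table. Of these, 20 were UDP-glucuronosyltransferase (Ugt) genes and 18 were sulfotransferase (Sult) genes.

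The RNA came from 10 libraries of poly-A-selected liver RNA. Tumour 1 and tumour 2 were liver tumours of single mice kept on Western diet (WD) with carbon tetrachloride (CCl4) for 24 weeks. The other 8 libraries came from liver, with RNA of 4 mice combined in every one, and gave 1 pool at 24 weeks and 1 at 12 weeks for WD with CCl4, WD with the oil vehicle, normal diet (ND) with CCl4 and ND with oil. CCl4 is a hepatotoxin that the pericentral enzyme Cyp2e1 activates. The labels used here give neither strain, sex, age, dose nor genotype, and all groups received either CCl4 or its oil. No combination of diet, treatment and duration had a second pool, so the spread in every liver test is that between pools of different duration after a shared duration shift was taken out, and not a spread between animals. Libraries held 23206229 to 30137802 reads. Values are normalised read counts, scaled for library size and by 1 further factor per library, and changes are log2 fold changes of value + 1 with the standard error (SE) of the fit. A change was called at an adjusted p under 0.05 over all 12648 tested genes (limma, Benjamini-Hochberg).

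Ugt enzymes sit in the endoplasmic reticulum of the hepatocyte and transfer glucuronic acid from UDP-glucuronic acid to lipophilic substrates, and Sult enzymes transfer sulfate from the donor PAPS in the cytosol. Both kinds of conjugate are more soluble and leave the cell through export pumps into bile or blood. Ugt1a genes arise from 1 locus in which each gene has its own first exon and all share the remaining exons. Ugt2b genes are separate neighbours.

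Promoter sequences are shown for 5 of the genes on which the results turn. Ugt2b5, Ugt2b36 and Ugt2b38, which lie close together on chromosome 5, fell with CCl4 on the normal diet. Ugt2b5 fell with CCl4 on the Western diet as well. Ugt2a3, which lies among them, fell with CCl4 on both diets, and Ugt1a9 with CCl4 on the Western diet. Each run is the 250 bases before the RefSeq gene start in GRCm38.p6, on the gene's own strand. Capitals mark every match, on either strand, to AGGTCA, the nuclear receptor core, or to TTACNNAA, a PAR bZIP pattern. Ugt2b5 lies at chr5:87140341-87140590 (minus strand), Ugt2b36 at chr5:87092556-87092805 (minus), Ugt2b38 at chr5:87424204-87424453 (minus), Ugt2a3 at chr5:87337196-87337445 (minus) and Ugt1a9 at chr1:88070529-88070778 (plus).
Ugt2b5: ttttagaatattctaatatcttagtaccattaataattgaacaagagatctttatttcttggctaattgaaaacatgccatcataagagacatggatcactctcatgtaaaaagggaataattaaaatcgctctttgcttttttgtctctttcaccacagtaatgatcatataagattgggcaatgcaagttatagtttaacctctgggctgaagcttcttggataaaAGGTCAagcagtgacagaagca
Ugt2b36: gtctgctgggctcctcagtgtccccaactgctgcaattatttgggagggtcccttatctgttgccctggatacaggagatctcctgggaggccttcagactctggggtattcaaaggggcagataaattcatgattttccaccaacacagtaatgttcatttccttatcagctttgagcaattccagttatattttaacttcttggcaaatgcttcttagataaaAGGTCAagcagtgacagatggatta
Ugt2b38: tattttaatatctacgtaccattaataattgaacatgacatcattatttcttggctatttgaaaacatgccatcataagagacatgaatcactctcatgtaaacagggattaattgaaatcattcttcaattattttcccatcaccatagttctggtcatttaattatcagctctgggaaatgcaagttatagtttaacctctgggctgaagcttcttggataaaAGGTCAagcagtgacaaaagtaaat
Ugt2a3: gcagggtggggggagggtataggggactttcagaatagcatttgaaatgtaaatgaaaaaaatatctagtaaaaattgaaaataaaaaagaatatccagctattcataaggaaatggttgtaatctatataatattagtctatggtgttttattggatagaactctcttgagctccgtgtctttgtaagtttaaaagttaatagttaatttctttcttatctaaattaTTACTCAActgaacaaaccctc
Ugt1a9: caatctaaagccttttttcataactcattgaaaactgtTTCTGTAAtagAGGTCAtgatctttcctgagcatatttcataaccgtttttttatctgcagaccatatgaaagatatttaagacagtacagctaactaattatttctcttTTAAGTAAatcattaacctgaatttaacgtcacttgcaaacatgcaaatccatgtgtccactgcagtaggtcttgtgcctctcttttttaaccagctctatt

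AGGTCA begins 22 bases before the start in Ugt2b5, 25 in Ugt2b36 and 25 in Ugt2b38. Ugt2b37, which passed no test, holds it 39 bases before the start, with much the same bases around it. These alike windows are not separate cases in the count below. Of the genes that fell, Ugt2b34 holds no match and Ugt2b1 holds TTACNNAA without AGGTCA. In Ugt2a3 the capitals are a TTACNNAA match, 22 bases before the start, and Ugt1a9 holds 3 matches. Of the 38 genes, 32 had a RefSeq window, and the first listed window of each gene was counted. AGGTCA was in 9 of these 32, against 14.0% of all 32851 windows of the same length, and TTACNNAA in 6, against 8.09%. The 32851 hold every window of a gene. The AHR core GCGTG was in 2, against 28.2% of all, and TATAAA in 6, against 12.4%, both searched on either strand. Further windows of Sult1b1 and Sult2b1, which were not counted, also held GCGTG. The motifs do not overlap in the windows shown. Ugt windows were rich in A and T, with a median of 65.2%, against 47.6% over all windows. These are letter matches in a window and no measure of binding.

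How far near-identical genes can be told apart bears on each value. The 120 coding bases in which a pair differs most are shown, with the differing bases in capitals. For Ugt2b5 and Ugt2b38 these are coding bases 1392 to 1511 of 1590, from GENCODE transcripts in GRCm38, and the pair is 97.0% identical over its coding sequence.
Ugt2b5: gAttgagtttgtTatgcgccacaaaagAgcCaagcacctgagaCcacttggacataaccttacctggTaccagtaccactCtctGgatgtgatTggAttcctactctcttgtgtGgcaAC
Ugt2b38: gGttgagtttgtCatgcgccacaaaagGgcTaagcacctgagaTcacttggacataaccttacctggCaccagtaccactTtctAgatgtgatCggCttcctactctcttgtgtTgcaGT
For Ugt1a6a and Ugt1a6b they are coding bases 241 to 360 of 1593, and the pair is 98.4% identical.
Ugt1a6a: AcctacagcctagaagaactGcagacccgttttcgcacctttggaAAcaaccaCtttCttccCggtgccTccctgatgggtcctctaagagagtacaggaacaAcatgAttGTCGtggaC
Ugt1a6b: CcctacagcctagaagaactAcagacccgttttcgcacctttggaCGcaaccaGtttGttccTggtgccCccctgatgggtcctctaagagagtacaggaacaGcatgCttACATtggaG

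In the stretches shown 13 bases differ for the Ugt2b pair and 15 for the Ugt1a6 pair, of 47 and 26 over the whole coding sequence. Of the 50-base stretches of the Ugt2b5 transcript, 34.8% were also in Ugt2b38, and 80.6% of those of Ugt1a6a were also in Ugt1a6b. All 50-base stretches of Ugt1a6a lie in at least 1 other annotated Ugt1a transcript, and the 5 measured Ugt1a genes share 58.2% to 100% of theirs. How the authors' counting dealt with such reads is not given in the sources used here. Ugt1a2 had at most 2 reads in any library while Ugt1a1 had 2669 to 8795, so reads from the shared exons were not credited to every Ugt1a gene. Over all annotated transcripts the share was 41.7% for Ugt2b5, 37.4% for Ugt2b38, 62.0% for Ugt1a9, 64.0% for Ugt1a5, 58.2% for Ugt1a1 and 62.1% for Sult2a2, and it was 0% for Ugt2b1 and Sult2a7. Values of genes with a high share are uncertain to that extent.

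Of the 38 genes, 23 (15 Ugt and 8 Sult) came to 1 or more in 2 or more libraries, and these were tested. Of those left out, 5 had no read in any library (Ugt2a1, Ugt2a2, Sult1c1, Sult2a4 and Sult2a6). The other 10 were low everywhere or high in 1 library only (Ugt1a2, Ugt1a7c, Ugt1a10, Sult2a1, Sult2a3, Sult2a5, Sult2b1, Sult3a1, Sult4a1 and Sult6b1). By subfamily the measured genes were 5 of 8 Ugt1a, 1 of 3 Ugt2a, 7 of 7 Ugt2b, 2 of 2 Ugt3a, 5 of 6 Sult1, 2 of 8 Sult2 and the single Sult5a1. Sult2a1 and Sult3a1 are known as female-predominant in mouse liver, and the Y-linked Ddx3y read 41.6 to 80.1 in these libraries.

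In ND oil liver the summed level of the family was 5447 at 24 weeks and 5691 at 12 weeks. Ugt2b held 68.3% ± 0.404 of it (SD, n = 2 pools), Ugt3a 9.89% ± 0.306, Sult1 7.94% ± 0.768 and Ugt1a 7.57% ± 0.789. Per kilobase of transcript, the share was 65.3% for Ugt2b and 10.7% for Sult1. On that scale, Ugt2b5 led with levels of 533 and 558 per kilobase at 24 and 12 weeks, followed by Ugt2b36 with 449.5 and 462 and Ugt2b1 with 328 and 347. Ugt3a2, which uses UDP-glucose and UDP-xylose rather than glucuronic acid in human enzymes, stood at 202 and 203, and Sult1a1, the phenol sulfotransferase, at 194 and 186. Those 2 neighbours in the order differed by little more than the gap between the pools of Sult1a1.

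**Figure D1:**
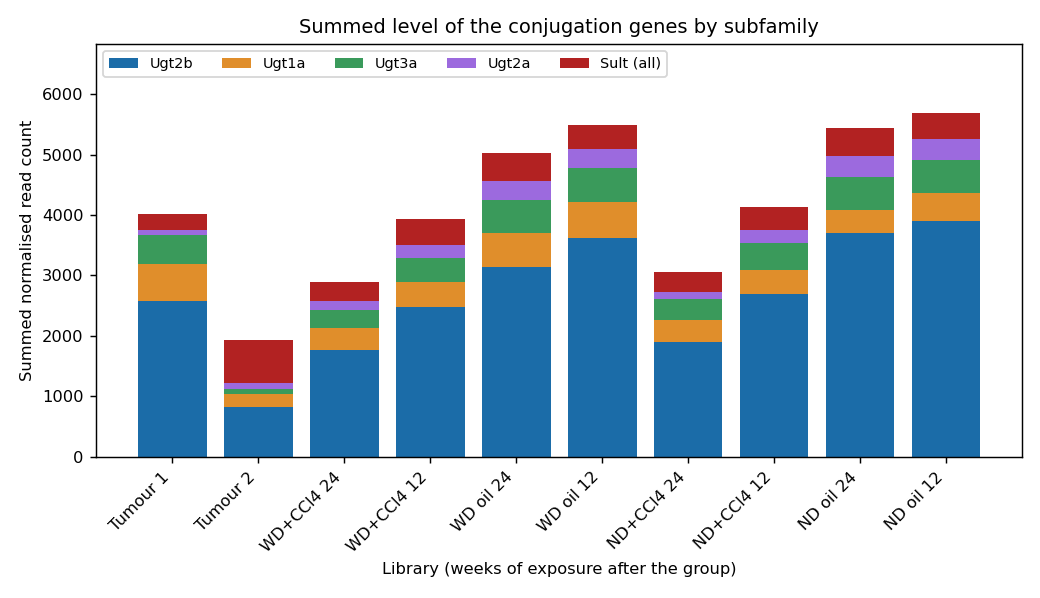
Summed normalised read count of all 38 genes in each library, stacked by subfamily (Sult genes together), with tumours at the left and normal-diet oil pools at the right. The CCl4 pools sum to 2889 to 4135 and the oil pools to 5024 to 5691, and tumour 2 has the lowest sum, 1929.

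The summed Ugt level was 2570.4 at 24 weeks and 3495 at 12 weeks in WD+CCl4 liver, 4569 and 5097 in WD oil liver, 2733 and 3757 in ND+CCl4 liver, and 4974 and 5258 in ND oil liver. Every CCl4 pool lay below every oil pool. The summed Sult level was 318 and 441 in WD+CCl4 liver, 455 and 391 in WD oil liver, 329 and 378 in ND+CCl4 liver, and 472 and 433 in ND oil liver, and there the CCl4 and oil pools overlapped. In bulk liver, fewer hepatocytes and less RNA per hepatocyte cannot be told apart.

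Joint exposure, WD with CCl4 against ND with oil, lowered 11 of the 23 measured genes and raised 1, where 10.2% of all tested genes were called lower and 15.7% higher. Ugt2a3, 6 of the 7 Ugt2b genes, both Ugt3a genes, Sult1a1 and Sult5a1 fell, and Sult2a2 rose at a low level. The median change was -0.54, against -0.02 over all tested genes. Without the 24-week ND oil pool 4 genes were called, with the 10 libraries in 1 fit 1 was called, and with no filter 7.

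CCl4 on the Western diet, against oil on the same diet, lowered 8 of the 23 and raised 0, where 2.52% of all tested genes were called lower and 4.29% higher. The 8 were Ugt1a1, Ugt1a5, Ugt1a9, Ugt2a3, Ugt2b5, Ugt2b35, Ugt3a2 and Sult5a1, with a median over the 23 of -0.55 against -0.02. Without the 24-week WD oil pool 0 were called by limma, without the 12-week WD oil pool 1 (Sult5a1), and without the 24-week WD+CCl4 pool 4. With the 10 libraries in 1 fit or with no filter 0 were called, and with no duration term 3. At an unadjusted p under 0.05, 15 of the 23 passed, against 24.3% of all tested genes, and edgeR on recovered reads called 8, against 6.65% of all.

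CCl4 on the normal diet, against oil on that diet, lowered 10 of the 23 and raised 0, where 10.6% of all tested genes were called lower and 15.3% higher. The 10 were 6 Ugt2b genes, Ugt2a3, both Ugt3a genes and Sult5a1, with a median over the 23 of -0.44 against 0.00. The count was 2 without the 24-week ND oil pool and 2 without the 24-week ND+CCl4 pool, 6 without the 12-week ND+CCl4 pool, and 12 without the 24-week or the 12-week WD+CCl4 pool. With quantile normalization or with no duration term it was 5, with no filter 2, and with the 10 libraries in 1 fit 1. This comparison and that of joint exposure share the ND oil pools, in which the clock output gene Dbp read 2.10 and 1.46, against 38.4 to 63.6 in the other 6 pools. The part of that difference in these calls was not tested. The comparison of diet alone and the interaction also use the ND oil pools. Dbp passed in both by limma, at 4.10 ± 0.21 (adjusted p = 0.000195) and -3.99 ± 0.30 (adjusted p = 0.00471). Its part in the members' values there was not tested either. Dbp did not pass the test for CCl4 on the Western diet (0.27 ± 0.21, adjusted p = 0.477), which does not show equal levels. That contrast holds no ND oil pool, although the ND oil pools enter the spread of its fit.

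**Figure D2:**
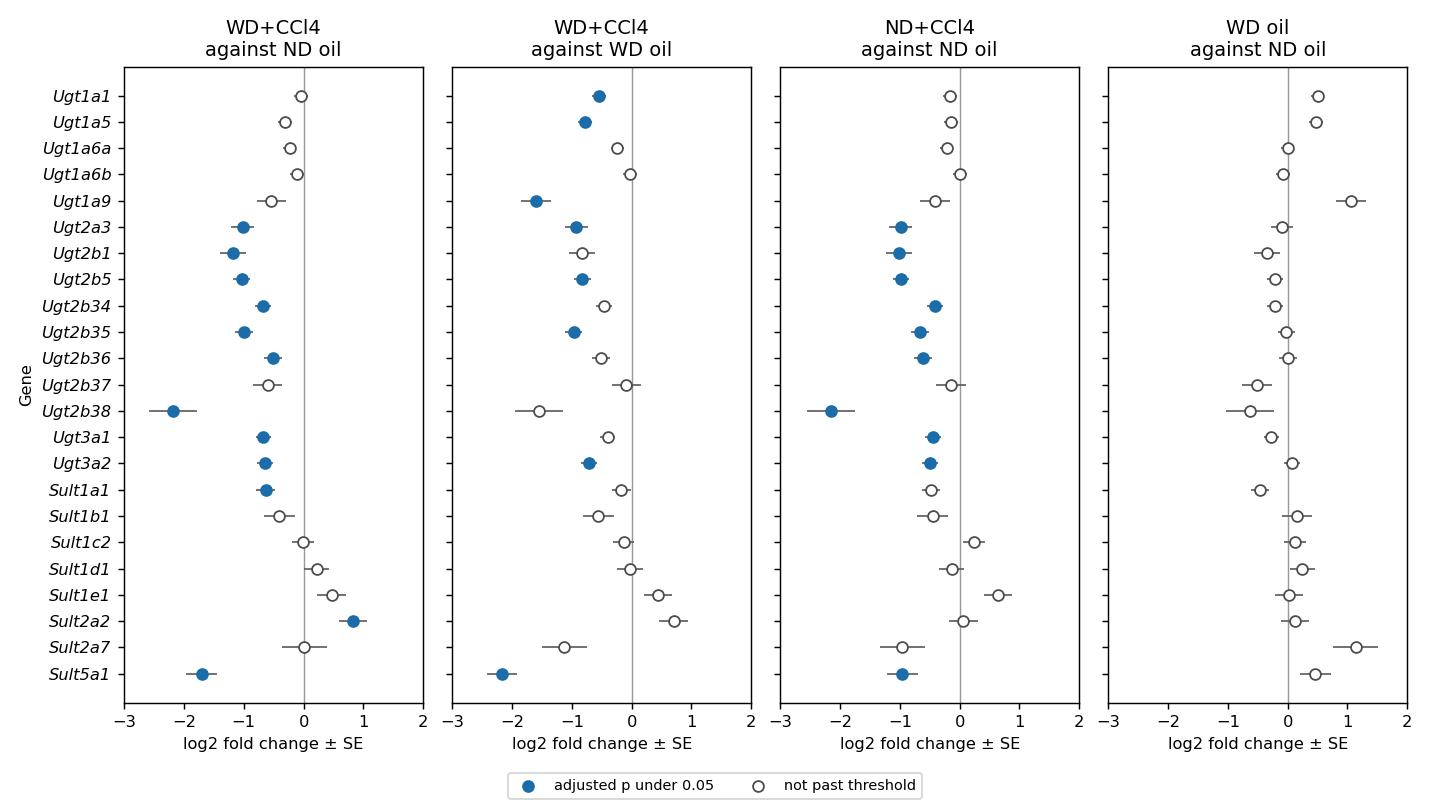
Log2 fold change with its standard error for each of the 23 measured genes in 4 comparisons of liver pools, 2 pools against 2. Filled points passed an adjusted p of 0.05 (limma). In the 3 comparisons with CCl4 most Ugt2 and Ugt3 points lie left of 0, Ugt1a9 and Ugt1a5 are filled only in the panel of WD+CCl4 against WD oil, and the panel of diet alone has no filled point.

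Among the Ugt2b genes, which conjugate steroids, bile acids and many drugs, Ugt2b5 had the smallest adjusted p with CCl4 on the normal diet. It read 428 at 24 weeks and 568 at 12 weeks in WD+CCl4 liver, 800.1 and 953 in WD oil liver, 449.7 and 587 in ND+CCl4 liver, and 990.4 and 1037 in ND oil liver. No CCl4 pool reached any oil pool. The change was -1.04 ± 0.14 with joint exposure (adjusted p = 0.00114), -0.82 ± 0.14 with CCl4 on WD (adjusted p = 0.0134) and -0.98 ± 0.14 with CCl4 on ND (adjusted p = 0.00181). The call on ND held without each of the 8 pools in turn, and Ugt2b5 is the only one of the 10 for which it did. With the 10 libraries in 1 fit that call was lost (limma, adjusted p = 0.348), and the 1 call kept there was Ugt2b38.

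Ugt2b1, a steroid-conjugating enzyme, read 289 and 504 in WD+CCl4 liver (24 and 12 weeks, as in all pairs that follow), 648 and 714 in WD oil liver, 306 and 601 in ND+CCl4 liver, and 843 and 892 in ND oil liver. The 24-week CCl4 pools were the lowest, and no CCl4 pool reached an oil pool. It fell by 1.18 ± 0.22 with joint exposure (adjusted p = 0.00583) and by 1.01 ± 0.22 with CCl4 on ND (adjusted p = 0.0120), and on WD the change was -0.83 ± 0.22 (adjusted p = 0.0585).

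Ugt2b35 read 169 and 179.9 in WD+CCl4 liver, 328 and 358 in WD oil liver, 179 and 271 in ND+CCl4 liver, and 331 and 368 in ND oil liver. Its WD+CCl4 pools were close to each other and far below the WD oil pools. It fell by 0.996 ± 0.14 with joint exposure (adjusted p = 0.00174), 0.97 ± 0.14 with CCl4 on WD (adjusted p = 0.00991) and 0.66 ± 0.14 with CCl4 on ND (adjusted p = 0.0119).

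Ugt2b36, one of the most abundant members, read 491 and 739 in WD+CCl4 liver, 805 and 921 in WD oil liver, 517 and 614 in ND+CCl4 liver, and 849 and 872 in ND oil liver. It fell by 0.51 ± 0.15 with joint exposure (adjusted p = 0.0390, a call that edgeR did not make) and 0.61 ± 0.15 with CCl4 on ND (adjusted p = 0.0216), and the change with CCl4 on WD was -0.52 ± 0.15 (adjusted p = 0.0815). The genes whose levels over the 8 pools were most like those of Ugt2b36 were Proc (Pearson r 0.994), Fbxo8 (0.993), Hgfac (0.992), Cyp2d10 (0.992) and Akr1c14 (0.992), a description over pools that share diets and treatments.

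Ugt2b34 read 392 and 482 in WD+CCl4 liver, 553 and 650.0 in WD oil liver, 450.2 and 609 in ND+CCl4 liver, and 674 and 716 in ND oil liver. The 12-week ND+CCl4 pool lay above the 24-week WD oil pool, so CCl4 and oil overlapped across diets but not within a diet. The gene fell by 0.68 ± 0.13 with joint exposure (adjusted p = 0.00662) and by 0.41 ± 0.13 with CCl4 on ND (adjusted p = 0.0482), a call that edgeR did not make.

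Ugt2b38 was a minor transcript, and of the 15 measured Ugt genes it had the largest change with joint exposure and with CCl4 on ND. It read 1.64 and 2.53 in WD+CCl4 liver, 4.67 and 13.1 in WD oil liver, 0.564 and 5.21 in ND+CCl4 liver, and 12.9 and 13.0 in ND oil liver. These values stand for 19 to 307 reads a pool. The ND oil pools were nearly equal, whereas the pools of the other groups differed with duration. It fell by 2.19 ± 0.40 with joint exposure (adjusted p = 0.00557) and by 2.16 ± 0.40 with CCl4 on ND (adjusted p = 0.00651). On WD the change was -1.55 ± 0.40 (adjusted p = 0.0554). Ugt2b37, at 1.19 to 2.98 in the pools, passed no test.

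Ugt2a3, a Ugt with activity toward bile acids in human studies, read 136 and 207 in WD+CCl4 liver, 314 and 325 in WD oil liver, 131 and 226 in ND+CCl4 liver, and 339 and 344 in ND oil liver. All 4 oil pools lay within 314 to 344, and all 4 CCl4 pools lay below them. It fell by 1.02 ± 0.19 with joint exposure (adjusted p = 0.00594), 0.92 ± 0.19 with CCl4 on WD (adjusted p = 0.0280) and 0.99 ± 0.19 with CCl4 on ND (adjusted p = 0.00756).

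Ugt3a2 read 269 and 337 in WD+CCl4 liver, 493 and 498 in WD oil liver, 297 and 378 in ND+CCl4 liver, and 472 and 473 in ND oil liver. It fell by 0.65 ± 0.13 with joint exposure (adjusted p = 0.00919), 0.72 ± 0.13 with CCl4 on WD (adjusted p = 0.0214) and 0.50 ± 0.13 with CCl4 on ND (adjusted p = 0.0284). Its neighbour on chromosome 15, Ugt3a1, whose human enzyme uses N-acetylglucosamine, read 42.4 and 55.4 in WD+CCl4 liver, 61.5 and 67.1 in WD oil liver, 51.3 and 63.6 in ND+CCl4 liver, and 78.8 and 77.1 in ND oil liver. Ugt3a1 fell by 0.67 ± 0.13 with joint exposure (adjusted p = 0.00641) and 0.44 ± 0.13 with CCl4 on ND (adjusted p = 0.0357), and the change with CCl4 on WD was -0.40 ± 0.13 (adjusted p = 0.0988).

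Ugt1a1, Ugt1a5 and Ugt1a9 read highest in WD oil liver. Ugt1a9, which conjugates phenols, read 32.7 and 18.2 in WD+CCl4 liver, 96.8 and 59.7 in WD oil liver, 30.3 and 23.6 in ND+CCl4 liver, and 31.2 and 41.3 in ND oil liver. The WD oil pools were the highest 2 and the remaining 6 lay within 18.2 to 41.3. With CCl4 on WD it fell by 1.60 ± 0.25 (adjusted p = 0.0110). The other changes did not pass: -0.54 ± 0.25 with joint exposure (adjusted p = 0.142), -0.41 ± 0.25 with CCl4 on ND (adjusted p = 0.251) and 1.06 ± 0.25 with the diet alone (adjusted p = 0.0764).

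Ugt1a1, the bilirubin-conjugating enzyme, read 206 and 272 in WD+CCl4 liver, 326 and 369 in WD oil liver, 202 and 236 in ND+CCl4 liver, and 219 and 273 in ND oil liver. It fell by 0.55 ± 0.11 with CCl4 on WD (adjusted p = 0.0278), and the change with the diet alone was 0.50 ± 0.11 (adjusted p = 0.0664). Ugt1a5 read 24.6 and 33.9 in WD+CCl4 liver, 44.4 and 57.1 in WD oil liver, 26.2 and 39.9 in ND+CCl4 liver, and 30.5 and 42.7 in ND oil liver. Ugt1a5 fell by 0.78 ± 0.12 with CCl4 on WD (adjusted p = 0.01004), with 0.47 ± 0.12 for the diet alone (adjusted p = 0.0908). The test of whether CCl4 acted differently on the 2 diets passed for none of these: the difference was -1.18 ± 0.35 for Ugt1a9 (adjusted p = 0.376), -0.63 ± 0.17 for Ugt1a5 (adjusted p = 0.334) and -0.38 ± 0.16 for Ugt1a1 (adjusted p = 0.535).

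Ugt1a6a and Ugt1a6b, phenol-conjugating enzymes of the same locus, held a narrow range: 43.1 to 57.3 for Ugt1a6a and 40.5 to 51.5 for Ugt1a6b over the 8 pools. Neither passed a test, and their changes with joint exposure were -0.23 ± 0.11 (adjusted p = 0.150) and -0.11 ± 0.12 (adjusted p = 0.542).

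**Figure D3:**
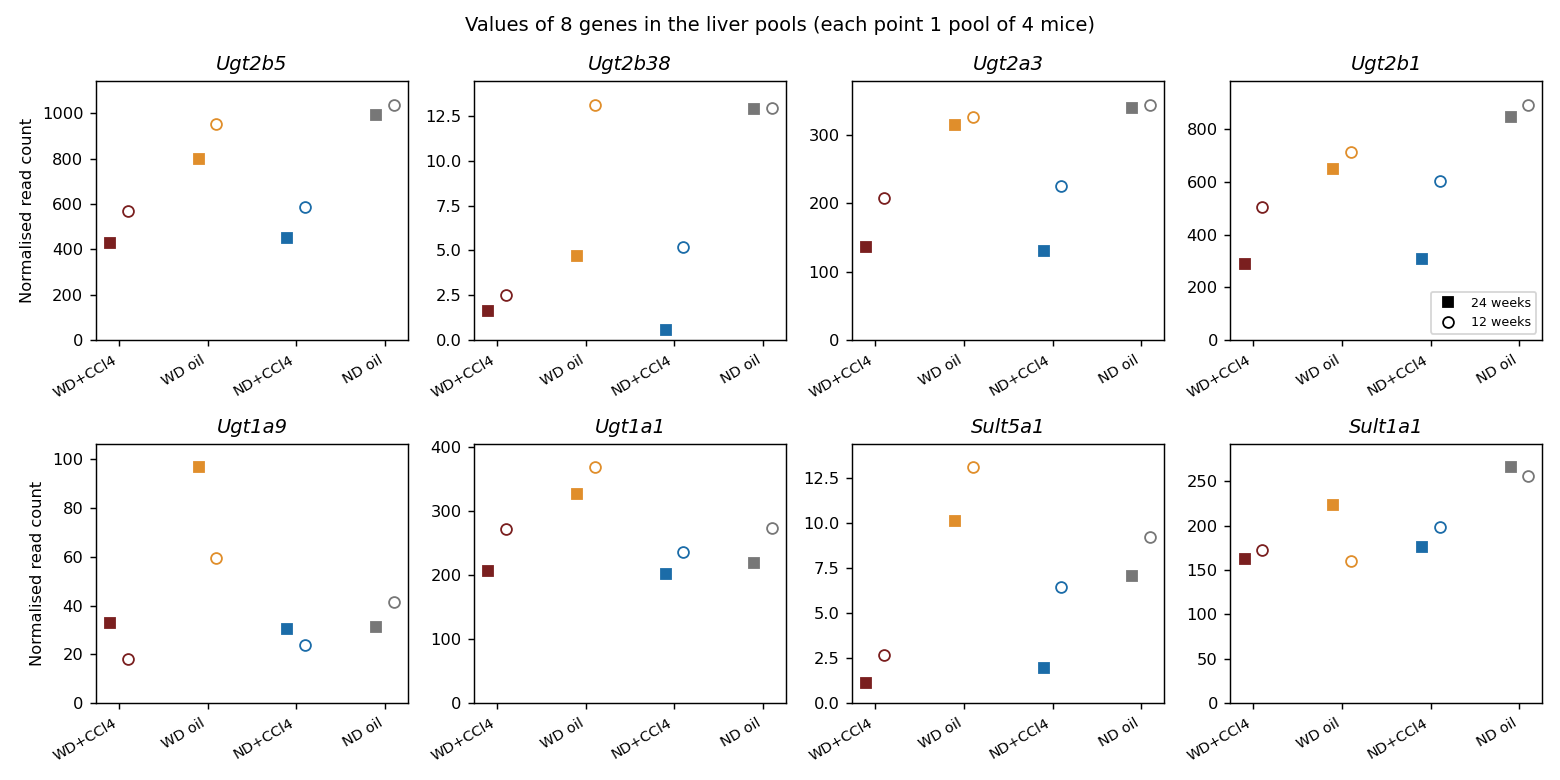
Normalised read counts of 8 genes in the liver pools, with groups from WD+CCl4 at the left to ND oil at the right and filled squares for 24 weeks, open circles for 12 weeks. Ugt2b5 in CCl4 pools lies between 428 and 587 and in oil pools between 800.1 and 1037, whereas Ugt1a9 stands apart in WD oil liver, at 96.8 and 59.7.

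Of the Sult genes, Sult5a1 was the only one called lower with CCl4 on either diet. It read 1.12 and 2.65 in WD+CCl4 liver, 10.1 and 13.1 in WD oil liver, 1.93 and 6.44 in ND+CCl4 liver, and 7.05 and 9.23 in ND oil liver, from 39 to 306 reads a pool. All CCl4 pools lay below all oil pools. It fell by 1.71 ± 0.26 with joint exposure (adjusted p = 0.00214), 2.17 ± 0.26 with CCl4 on WD (adjusted p = 0.00460) and 0.96 ± 0.26 with CCl4 on ND (adjusted p = 0.0266). The difference between diets in the effect of CCl4 was -1.21 ± 0.36 (adjusted p = 0.381).

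Sult1a1 read 163 and 173 in WD+CCl4 liver, 223 and 159.6 in WD oil liver, 176 and 198 in ND+CCl4 liver, and 266 and 255 in ND oil liver. The 12-week WD oil pool was the lowest of the 8, so CCl4 and oil overlapped on WD. It fell by 0.63 ± 0.16 with joint exposure (adjusted p = 0.0195), and the change was -0.17 ± 0.16 with CCl4 on WD (adjusted p = 0.554) and -0.48 ± 0.16 with CCl4 on ND (adjusted p = 0.0528). The genes most like it over the 8 pools were Tsr3 (Pearson r 0.974), Tk2 (0.964), Vmn2r29 (0.964), Fuz (0.953) and Bcas2 (0.952).

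Sult2a2, of the hydroxysteroid sulfotransferases, read 0.603 and 0.960 in WD+CCl4 liver, from 21 and 25 reads, and 0 in both ND oil pools. Against a floor of 3 reads per library, it was at least 5.78-fold higher. It rose by 0.83 ± 0.24 on the fitted scale (adjusted p = 0.0345), a value that depends on the pseudocount and is no bound. The call was kept in 1 of the 8 fits that left out a pool and was lost with quantile normalization and with the 10 libraries in 1 fit, with adjusted p-values of 0.0302 to 0.427 over the alternatives. No pool came to 1, and the gene passed the filter through the tumours. Its coding sequence was 97.9% identical to that of Sult2a1, and which of the relatives these few reads came from was not tested. The oestrogen sulfotransferase Sult1e1 read 0.689 and 0.461 in WD+CCl4 liver, 0.334 and 0 in WD oil liver, 1.25 and 0.398 in ND+CCl4 liver, and 0.183 and 0.0887 in ND oil liver, and passed no test. Sult1d1, which conjugates catecholamines, read 128 to 229 over the pools, Sult1b1, which conjugates thyroid hormones, 16.7 to 38.3, Sult1c2 3.34 to 4.48 and Sult2a7 0.772 to 9.91, and none of these passed a test.

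**Figure D4:**
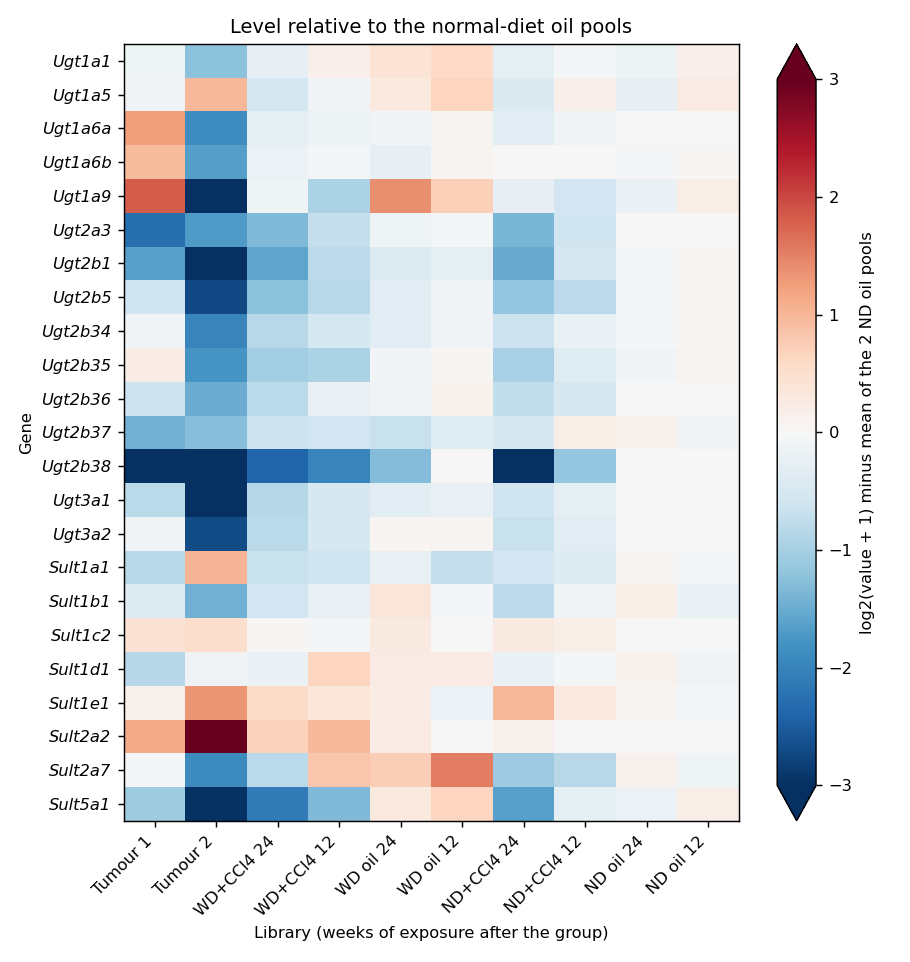
Level of each measured gene in each library as log2(value + 1) minus the mean of the 2 normal-diet oil pools, with blue for lower and red for higher and colours limited at 3. Ugt2a3, Ugt2b and Ugt3a rows are blue in the 4 CCl4 pools, except Ugt2b37 in the 12-week ND+CCl4 pool, and deeper at 24 than at 12 weeks for Ugt2b1, and the 2 tumour columns differ from each other, with Ugt1a9 red in tumour 1 and blue in tumour 2.

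Western diet with oil against normal diet with oil gave 0 called genes of the 23 by limma, where 1.45% of all tested genes were called higher and 0.546% lower. At an unadjusted p under 0.05, 5 passed (Ugt1a1, Ugt1a5, Ugt1a9, Sult1a1 and Sult2a7), against 17.5% of all tested genes, and edgeR called 0, against 2.06% of all. Leaving out a pool that is not in this contrast made calls at the same fold change. Ugt1a9 (1.06, adjusted p = 0.0323), Ugt1a1 (0.50, adjusted p = 0.0430) and Sult2a7 (1.14, adjusted p = 0.0499) were called without the 24-week WD+CCl4 pool, and Ugt1a9 and Ugt1a1 without the 12-week one. Without the 12-week ND oil pool Ugt1a9 was called (1.56, adjusted p = 0.0214). Between the diets under CCl4, 0 were called by limma where 0.00791% of all tested genes were called higher and 0.0395% lower. There 4 passed unadjusted, against 7.03% of all, and edgeR called 0, against 0.0395% of all. The interaction of diet and CCl4 gave 0 by limma, where 0.0553% were called higher and 0.0474% lower, with 4 unadjusted, against 8.94% of all, and 0 by edgeR, against 0.0712%.

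Duration, 24 against 12 weeks over all 8 pools, gave 0 called genes by limma, with 0% of all tested genes called higher and 0% lower. At an unadjusted p under 0.05, 10 of the 23 passed, 9 of them Ugt genes, against 11.7% of all tested genes, and edgeR called 0, against 0.00791% of all. The median over the 23 was -0.21 against 0.00 over all genes. In a fit with a term for CCl4 by duration, added after seeing the data, 0 members were called by limma, where 0.0158% of all tested genes were called higher and 0.0395% lower. There 6 passed unadjusted, against 11.5% of all, and edgeR called 0, against 0.0237%. The differences between the effect of CCl4 at 24 and at 12 weeks were -0.78 ± 0.15 for Ugt2b1 (adjusted p = 0.223), -0.66 ± 0.14 for Ugt2a3 (adjusted p = 0.237) and -0.93 ± 0.18 for Sult1b1 (adjusted p = 0.223).

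By more than 1 on the log2 scale, tumour 2 was lower than tumour 1 in 13 of the 23 genes and higher in 4, against 7.95% and 6.4% of all tested genes. The 4 were Ugt1a5, Sult1a1, Sult1e1 and Sult2a2. The filter admitted Sult2a2 only through the tumours, and Sult1e1 only through tumour 2 (1.82) and the 24-week ND+CCl4 pool (1.25), so those 2 were partly selected for being high there. Against WD+CCl4 liver 0 of the 23 were called by limma, where 0.466% of all tested genes were called higher and 0.506% lower, and 3 passed unadjusted (Ugt1a5, Ugt2a3 and Ugt2b37), against 16.7% of all. The count by edgeR was 0, against 0.672% of all, and with no filter 1 was called, Sult2b1 at 0.75 (adjusted p = 0.0362). Without tumour 1, 15 members were called in the remaining tumour, 3 higher and 12 lower, where 18.9% of all tested genes were called. Without tumour 2, 9 were called, 7 higher and 2 lower, where 17.9% of all were called. Those fits give the lone tumour the spread of the pools. Sult2a2, which passed the filter only through the tumours, is among the members called higher without tumour 1.

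Summed Ugt level was 3746 in tumour 1 and 1224 in tumour 2, against 2570.4 in WD+CCl4 liver at 24 weeks. Summed Sult level ran the other way, 264 in tumour 1 and 705 in tumour 2, against 318. Ugt1a9 read 128 in tumour 1 and 0.854 in tumour 2, against 32.7 in the 24-week WD+CCl4 pool. The phenol-conjugating Ugt1a6a read 129 in tumour 1 and 14.2 in tumour 2, against 43.5. Of the 5 measured Ugt1a genes, Ugt1a5 alone was higher than that pool in both tumours, at 33.5 and 73.2 against 24.6.

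Ugt1a1 read 226 in tumour 1 and 104 in tumour 2, against 206, and in tumour 2 it lay below all pools. Ugt2b38 read 0.313 and 0.737, against 1.64, and lay below all pools in tumour 1.

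Ugt2b5 read 673 in tumour 1 and 155 in tumour 2, against 428 in the 24-week pool. Ugt2b36 read 560.4 and 305, against 491. Ugt2b34 read 654 and 176, against 392. In tumour 2 these 3 abundant genes lay below all 8 liver pools. Ugt2b35 read 409.9 in tumour 1, above all pools, and 102 in tumour 2, below all pools, against 169. Ugt2b1 read 278 and 90.7, against 289, and Ugt2a3 70.8 and 105, against 136, so both genes lay below all pools in both tumours. Ugt3a2 read 439 and 73.2, against 269, and Ugt3a1 44.3 and 8.85, against 42.4.

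Sult1a1 read 146 in tumour 1, below all pools, and 530.4 in tumour 2, above all pools, against 163 in the 24-week pool. Sult2a2 read 1.21 and 8.07, against 0.603, from 31 and 208 reads, against 21. As no pool came to 1, Sult2a2 passed the filter only through the tumours, and its place above the pools follows from that. Sult4a1, a brain-type sulfotransferase that the filter left out, read 0.313 in tumour 1 and 10.7 in tumour 2, from 8 and 275 reads, against 0.115 from 4 reads. All 3 of these genes were higher in tumour 2 than in tumour 1. Sult5a1 read 3.36 and 0.155, against 1.12. Sult1d1 read 81.2 and 137, against 128, and Sult1b1 22.6 and 10.3, against 19.4.

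Counted over members, 6 of 23 lay below all 8 pools in tumour 1 and 16 of 23 in tumour 2, against 27.7% and 21.3% of all tested genes. Above all pools were 6 in tumour 1 and 5 in tumour 2, against 25.5% of all tested genes in each. Both counts include Sult2a2, which the filter admitted only through the tumours. The 5 in tumour 2 also include Sult1e1, which passed the filter only with the value of tumour 2 itself beside that of 1 pool. The summed level of 12 hepatocyte markers was 105898 in tumour 1 and 311074 in tumour 2, against 93670.1 in the 24-week pool. Most of the sum in tumour 2 was albumin, Alb, at 203789, against 66122 in tumour 1. Only Serpinc1 and Ttr read lower in tumour 2 than in tumour 1, Serpinc1 at 2405 in tumour 1 and 1468 in tumour 2, and Ttr at 4444 and 3496. All other markers of the list read higher in tumour 2, among them Apoa1 at 3789 and 22796, Trf at 19147 and 57984, and Hnf4a at 443 and 764. The pericentral marker sum was 1272 and 615, against 4826, and the periportal sum 4206 and 5151, against 8758. Most of the pericentral sum in the 24-week pool was Cyp2e1, at 4067, against 556 in tumour 1 and 478 in tumour 2. In tumour 1 Glul (530, against 369) and Rhbg (36.6, against 14.2) read higher than that pool, and the rest of the list lower. In tumour 2 the whole list read lower. Of the periportal markers, Aldh1b1, Hsd17b13 and Ctsc read higher than that pool in both tumours, and Hal, Gls2 and Uroc1 only in tumour 2. The rest read lower in both. Of the cholangiocyte markers, Spp1 read 357 and 772, against 524, whereas Epcam read 1.41 and 1.47, against 18.8, and Krt19 1.13 and 0.699, against 8.99. The macrophage marker sum was 529 and 469, against 875. The part of cell make-up in the tumour values was not tested.

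**Figure D5:**
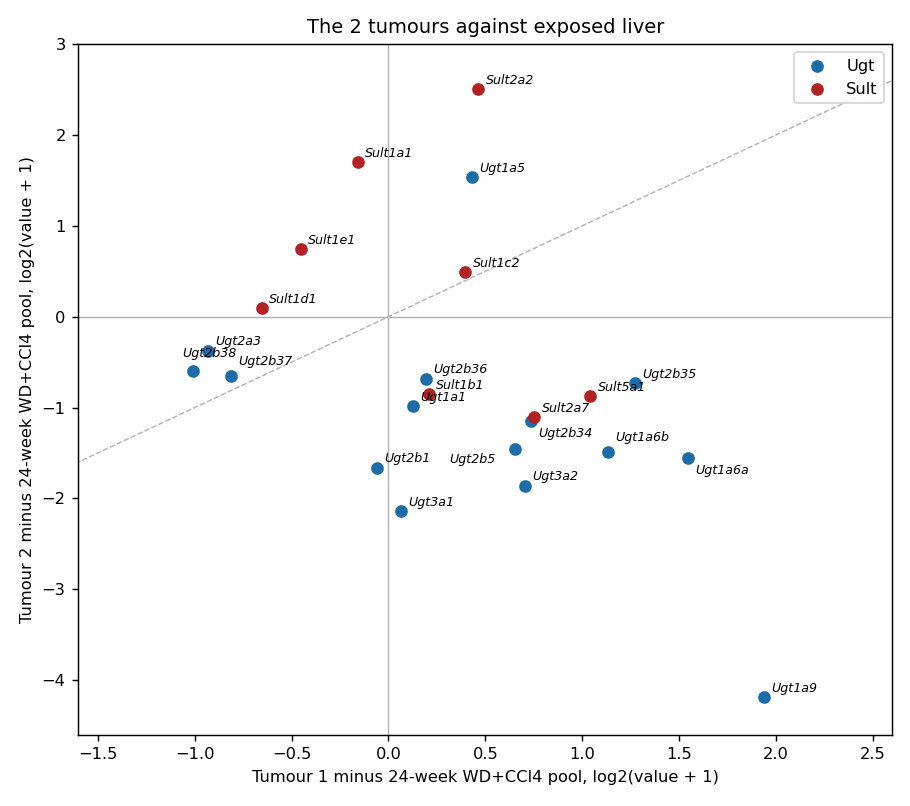
Difference of each measured gene from the 24-week WD+CCl4 pool on the log2(value + 1) scale, tumour 1 on the horizontal and tumour 2 on the vertical axis, with a dashed line where both are equal. Most Ugt points lie right of 0 and below 0, with Ugt1a9 the farthest from the line at 1.93 and -4.19, and Sult1a1 lies on the other side at -0.16 and 1.70.

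Genes that supply, reverse or carry conjugation were counted from companion lists. Of 4 genes for UDP-glucuronic acid supply and use, 1 fell with joint exposure, 1 with CCl4 on WD and 0 with CCl4 on ND. The 1 was Ugdh, the enzyme that makes UDP-glucuronic acid, which fell by 0.73 ± 0.16 with joint exposure (adjusted p = 0.0115) and by 0.66 ± 0.16 with CCl4 on WD (adjusted p = 0.0449). Ugdh read 329.6 in tumour 1 and 30.1 in tumour 2, against 201 in the 24-week pool. Ugp2, which makes UDP-glucose, was not called (0.25 ± 0.13 with joint exposure, adjusted p = 0.205).

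Of 9 genes for PAPS and sulfate supply, 0 were called with joint exposure, 0 with CCl4 on WD and 1 with CCl4 on ND, the sulfate transporter Slc26a2 (0.75 ± 0.18, adjusted p = 0.0183). Papss2, the main liver PAPS synthase, was not called with joint exposure (0.10 ± 0.14, adjusted p = 0.616). In the tumours Suox, sulfite oxidase, fell by 1.80 ± 0.28 (adjusted p = 0.0360). The deconjugation list had 4 measured genes, the carboxylesterase gene Ces1e beside Gusb, Arsa and Arsb. Of these 4, 2 rose and 1 fell with joint exposure, 0 moved with CCl4 on WD, and 2 rose and 1 fell with CCl4 on ND. The beta-glucuronidase Gusb rose by 0.67 ± 0.14 with joint exposure (adjusted p = 0.00921) and the arylsulfatase Arsa by 0.67 ± 0.18 (adjusted p = 0.0278), while the carboxylesterase Ces1e fell by 0.70 ± 0.13 (adjusted p = 0.00506).

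Of 10 genes for conjugate export and anion uptake, 1 rose and 2 fell with joint exposure, 3 fell with CCl4 on WD, and 1 rose and 3 fell with CCl4 on ND. The basolateral export pump Abcc4 rose by 1.19 ± 0.20 with joint exposure (adjusted p = 0.00385), and the uptake transporters Slco1a1 and Slco1a4 fell by 4.81 ± 0.61 (adjusted p = 0.000999) and 0.69 ± 0.16 (adjusted p = 0.0128). Abcc2, the canalicular pump for glucuronides, was not called (0.26 ± 0.13, adjusted p = 0.155). Of 17 xenobiotic receptors and hepatocyte factors, 3 rose and 1 fell with joint exposure, 1 and 1 with CCl4 on WD, and 3 and 1 with CCl4 on ND. With joint exposure Por, Ppara and Nfe2l2 rose, by 1.43 ± 0.14, 0.87 ± 0.13 and 0.59 ± 0.10, and the constitutive androstane receptor Nr1i3 fell by 1.145 ± 0.15 (adjusted p = 0.00120). In the tumours Slco1a4 fell by 2.05 ± 0.19 (adjusted p = 0.0169), Por by 1.78 ± 0.19 (adjusted p = 0.0183) against WD+CCl4 liver, and the aryl hydrocarbon receptor Ahr fell by 1.53 ± 0.21 (adjusted p = 0.0238).

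Of 7 receptor marker targets, 3 fell with joint exposure, 3 with CCl4 on WD, and 2 rose and 3 fell with CCl4 on ND. The AHR target Cyp1a2, which is also in the pericentral marker list, fell by 2.02 ± 0.25 with joint exposure (adjusted p = 0.000899). Cyp1a1 read 1.18 and 1.73 in WD+CCl4 liver, against 1.46 and 1.33 in ND oil liver. Nqo1 read 16.7 and 12.1, against 10.8 and 10.2. Male-biased liver genes fell in 14 of 14 with joint exposure, 8 of 14 with CCl4 on WD, 13 of 14 with CCl4 on ND and 7 of 14 with the diet alone, and their summed level was 2880.0 and 3861 in WD+CCl4 liver, 7380.2 and 8720.2 in WD oil liver, 3032 and 5144 in ND+CCl4 liver, and 24086 and 21802 in ND oil liver. The steepest falls with joint exposure were those of Hsd3b5 (-6.81), Serpina1e (-6.60), Elovl3 (-5.75) and Mup21 (-4.90). Of 7 measured female-biased genes, 4 rose and 3 fell with joint exposure, 2 and 1 with CCl4 on WD, and 4 and 3 with CCl4 on ND. Cyp2a4 rose by 5.13 and Cyp2b9 by 3.03 with joint exposure, and Cyp17a1 and Acot3 also rose. The 3 that fell were Cyp2c40, Cyp2c69 and Prlr. Cyp2c40 read 0.144 and 0.730 in WD+CCl4 liver, against 1.97 and 4.97 in ND oil liver. Prlr read 39.4 and 51.5, against 97.1 and 108. Of 4 tested sex check genes 0 were called in any of the 3. The part of this shift in the members' values was not tested.

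Markers of other cells moved with the same exposures. With joint exposure, 8 of 9 stellate cell and fibroblast markers rose, 7 of 9 macrophage, 5 of 8 endothelial and 4 of 7 cholangiocyte markers, and among 9 lymphocyte and neutrophil markers 3 rose and 1 fell. Summed stellate cell and fibroblast markers were 1245 and 824 in WD+CCl4 liver, 487 and 467 in WD oil liver, 923 and 626 in ND+CCl4 liver, and 243 and 236 in ND oil liver. Of 12 hepatocyte markers, 4 fell with joint exposure, 0 with CCl4 on WD and 4 with CCl4 on ND, and none was at 0 in any library. Their sum was 93670.1 and 132261 in WD+CCl4 liver, 137459 and 157042 in WD oil liver, 101224 and 113058 in ND+CCl4 liver, and 166713 and 176976 in ND oil liver. Every CCl4 pool of this sum lay below every oil pool, as for the summed Ugt level. Of 12 pericentral markers 5 fell with joint exposure and 2 with CCl4 on WD, and with CCl4 on ND 1 rose and 1 fell. Of 10 periportal markers 1 rose and 2 fell with joint exposure, 3 fell with CCl4 on WD and 3 with CCl4 on ND. Of 3 measured intestine, kidney and pancreas markers, 2 rose and 1 fell with joint exposure. The part of cell make-up in the members' calls was not tested.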

How the data were processed

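RNA was extracted with RNeasy columns and made into poly-A TruSeq libraries, per the labels' protocols. The submitters' processing notes name STAR and mm10 without versions, and how reads were counted, with or without strand, is not given in the sources used here. Each deposited signal value was a number of whole reads times 1 constant per library (100% whole within 0.01), and the constants matched TMM-scaled CPM. Even read numbers made up 62.6% to 65.0% of values of at most 200 reads, and the reason was not tested.

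The members, gene lists and tests were chosen with earlier results of these data known. Genes that came to 1 or more in 2 or more libraries were tested on log2(value + 1) with limma 3.58.1 in R 4.3.3 (two-sided, mean-variance trend, Benjamini-Hochberg over 12648 genes), on the 8 liver pools with group means and a duration term, and on all 10 libraries for the tumours. Fold changes on this scale understate changes of low genes. The whole reads so recovered went into edgeR 4.0.16 as an alternative. Replicates were numbered in accession order, and p-values measure only the spread between these pools.

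Every library's values are given for members with a mean of at least 5 that were called in a comparison, and for the 5 most abundant. Of 18 companion lists, counts are given with up to 4 called members of the largest change and up to 2 uncalled of the highest level. The results were also computed with quantile normalization, edgeR, a pseudocount of 0.1, a filter of 5, no filter, no duration term, all 10 libraries in 1 fit, and leaving out each library. The tests were also run on simulated data in which the tumours had the spread of the liver pools. Pools of both durations were plain repeats there, except where duration was tested. That check does not cover the spread between the tumours or the use of durations as repeats.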

Additional observations from a re-analysis of the deposited data

Results flagged for a closer look

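For Ugt2b36 the Western diet minus normal diet difference had opposite signs at the 2 durations. On the log2 scale it was -0.0760 with oil and -0.0746 with CCl4 at 24 weeks, and 0.0788 with oil and 0.268 with CCl4 at 12 weeks. Each value compares 1 pool with 1 pool, and the difference was not tested.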

How the results depend on the processing

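With no filter, called members numbered 7 instead of 12 for joint exposure, 0 instead of 8 for CCl4 on the Western diet, 2 instead of 10 for CCl4 on the normal diet and 1 instead of 0 for the tumours. With all 10 libraries in 1 fit they numbered 1 for joint exposure, 0 for CCl4 on the Western diet and 1 for CCl4 on the normal diet. Dropping the duration term gave 3 for CCl4 on the Western diet and 5 for CCl4 on the normal diet, and quantile normalization gave 5 for the last. The cause was not tested. The share of all tested genes was not counted in these fits, nor in those that left out a liver pool. Leaving out 1 library at a time gave 4 to 11 for joint exposure, 0 to 11 for CCl4 on the Western diet, 2 to 12 for CCl4 on the normal diet, 0 to 3 for the diet with oil, and 0 to 15 for the tumours. It gave 0 to 0 for the diet under CCl4, the interaction and duration. A pseudocount of 0.1, the stricter filter and edgeR kept each of these counts within 1.5 times. None of the 30 calls changed sign under any alternative run. In the subfamily shares, Ugt2b was 65.3% and Sult1 10.7% per kilobase of transcript. In the liver pools the replicate number stands for duration, so the duration term already pairs the pools, and the fit without it is the unpaired one. With 1 pool per condition and duration, and few reads for Sult2a2, Sult1e1, Sult5a1 and Ugt2b38, small changes of those genes were not detectable at this depth.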

Other observations

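Sult2a8, a bile acid sulfotransferase of mouse liver that the table lists under its older symbol 2810007J24Rik, lay outside the symbol rule and was looked up after its values were seen. It read 93.9 in tumour 1 and 22.7 in tumour 2. In liver at 24 and 12 weeks it read 156 and 633 with WD+CCl4, 917 and 984 with WD oil, 92.8 and 402 with ND+CCl4, and 945 and 926 with ND oil, so every CCl4 pool lay below every oil pool. It fell by 1.57 ± 0.50 with joint exposure (limma, adjusted p = 0.0470). It fell by 2.27 ± 0.50 with CCl4 on ND (adjusted p = 0.0124), and the change with CCl4 on WD was -1.59 ± 0.50 (adjusted p = 0.0908). In the fit with CCl4 by duration, added after seeing the data, the effect of CCl4 was lower at 24 than at 12 weeks by -2.02 ± 0.15 (adjusted p = 0.0108), where no member passed the same test.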
